A study of Glycine max with 3 samples.

Results

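miR159 and miR319 are related plant miRNA families, small RNAs that guide the cutting of messenger RNAs. The profile tables held 13 distinct sequences named for them, 4 of miR159 and 9 of miR319, out of 381 distinct sequences in all. They were chosen by name, taking every sequence listed under miR159 or miR319 from either arm of a hairpin. The degradome table added 22 pairs of such a sequence with a transcript, out of 898 pairs. The plants were soybean (Glycine max) of the vegetable cultivar Taiwan 75 with 1 true leaf. Control plants grew at day and night temperatures of 25 °C and 17 °C, and chilled plants spent 24 h at 4 °C. For each condition the leaves of 3 replicates went into 1 small RNA library, so a ratio compares 2 libraries and has no replicate check. A further library, of chilled and control leaves mixed, gave the degradome, the 5′ ends of cut messenger RNAs; its label gives 10 days after pollination as its stage, unlike the others.

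miRNAs of plants are cut from the stem of a folded precursor by a Dicer-like enzyme and pair with their targets along most of their length. In Arabidopsis, miR159 acts on MYB33 and related GAMYB transcription factors, which take part in gibberellin responses and anther development, and miR319 acts on TCP transcription factors, which limit leaf cell division. The families differ in few bases, and in Arabidopsis miR319 can also act on the MYB genes. Precursors of both families have unusually long stems, which in Arabidopsis are cut stepwise, starting from the loop side, so that a precursor can release more than 1 duplex.

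The sequences the results turn on are shown first, as deposited, with bases 2 to 8 (the seed) in capitals. The first 4 are the whole of miR159, and the others are the miR319 sequence with a degradome pair (miR319g), its counterpart with more reads (miR319n) and the miR319 sequence with the most reads (MIR319i-p5). The ending p3 or p5 in a deposited name, with MIR in capitals, marks a sequence placed on the 3′ or 5′ arm of a known hairpin.
miR159a-5p: gAGCTCCTtgaagtccaatt
miR159a-3p: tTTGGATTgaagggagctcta
miR159d: aGCTGCTTagctatggatccc
MIR159d-p3: cTTCCATAtctggggagcttc
miR319g: tTTGGACTgaagggagct
miR319n: tTTGGACCgaagggagcccct
MIR319i-p5: aGGAGCTTccttcagcccatg

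miR319g matched miR159a-3p in 17 of its 18 bases, differing by T7C, with positions counted from 1 at the 5′ end of miR159a-3p and the base of miR159a-3p first. miR319n matched it in 16 of 21 bases and differed by T7C, T8C, T18C, T20C and A21T. The differences at bases 7 and 8 fall inside the seed, so miR159a-3p, miR319g and miR319n have 3 different seeds. The 4 miR159 sequences did not share a seed either. Over all 13 sequences a seed occurred more than once in 1 case, in MIR319i-p5 and MIR319c-p5.

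All 4 miR159 sequences lay in 1 hairpin. The deposited table gives miR159a-5p and miR159a-3p to a hairpin of 214 bases on the plus strand of chromosome 9 and to a second one of 211 bases on the minus strand of chromosome 7 (9561934 to 9562144), and gives miR159d and MIR159d-p3 to a hairpin of 103 bases on the plus strand of chromosome 9 (40267067 to 40267169). The shorter hairpin is a stretch of the longer one: it starts 54 bases after its start and ends 57 bases before its end, with the same bases throughout. The long hairpin is shown because it carries the finding below, with the 4 listed sequences in capitals, in the order miR159a-5p, miR159d, MIR159d-p3, miR159a-3p. Coordinates are those of the deposited table, plus strand, whose genome build the sources used here do not give.
chr9:40267013-40267226: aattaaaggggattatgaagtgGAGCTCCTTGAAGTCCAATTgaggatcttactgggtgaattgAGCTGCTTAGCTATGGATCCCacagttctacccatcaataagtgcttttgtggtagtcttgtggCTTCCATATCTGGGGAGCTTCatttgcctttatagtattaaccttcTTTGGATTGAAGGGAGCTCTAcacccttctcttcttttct

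The sequences formed an outer pair (miR159a-5p and miR159a-3p) and an inner pair nearer the loop (miR159d and MIR159d-p3). In the deposited folding of the long hairpin, 16 bases of miR159a-5p paired with miR159a-3p and 13 bases of miR159d with MIR159d-p3. In each pair the 3′ strand reached 2 bases past the partner of the first base of the 5′ strand, the overhang that a Dicer cut leaves. At the other end of each pair the first base of the 3′ strand was unpaired in this folding, so no overhang could be read there. The outer and inner sequences were 22 bases apart on the 5′ side and 25 on the 3′ side, and 43 bases of loop side lay between the inner ones. The inner sequences also occurred exactly in the chromosome 7 hairpin, where the table does not list them, so their reads cannot be assigned to 1 locus.

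Reads below are raw reads as deposited, which hold fractions, unless they are called normalised, that is, scaled by TMM for the depth of each library. Over all 381 sequences the control table summed to 3856902 reads and the chilled one to 5347700. The log2 ratio sets chilled over control normalised reads, with a pseudocount of 1, and its 95% interval is an exact binomial one on the rounded reads. Intervals cover counting error only and no spread between plants, since each condition has 1 library. The deposited values count reads and not molecular identifiers, so the intervals may be too narrow. A sequence counted as 2-fold lower or higher where its log2 ratio reached 1 in either direction and 1 library had at least 10 normalised reads.

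The inner pair was lower in the chilled library and the outer pair nearly level. miR159a-3p, the most abundant member, had 559.3 control and 572.3 chilled reads. Its log2 ratio was -0.21 (-0.38 to -0.04), which turned to 0.03 with unscaled reads. The abundant strand differed by less than the choice of scaling moves it. miR159a-5p, its partner strand, had 56.2 control and 42.2 chilled reads. Its log2 ratio was -0.65 (-1.27 to -0.06). Neither outer strand met the 2-fold rule.

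MIR159d-p3, the more abundant inner strand, had 145.8 control and 36.3 chilled reads. Its log2 ratio was -2.22 (-2.83 to -1.73), 4.65-fold lower in the chilled library. miR159d, the other inner strand, had 22.7 control and 2.67 chilled reads. Its log2 ratio was -2.90 (-5.56 to -1.46), and its wide interval reflects the few chilled reads. Both inner strands met the 2-fold rule under every scaling run, with ratios between -2.44 and -1.98 for MIR159d-p3 and between -3.09 and -2.69 for miR159d over all scalings, the smaller pseudocount and the sum of entries. Among the 213 sequences of the table with at least 10 normalised reads, 3 had a ratio as low as or lower than that of miR159d, itself included, and 8 as low as that of MIR159d-p3. miR159d passed that minimum through the control library alone, with 24.7 normalised reads against 2.45 in the chilled one. Its rank is therefore a description and not support.

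**Figure D1:**
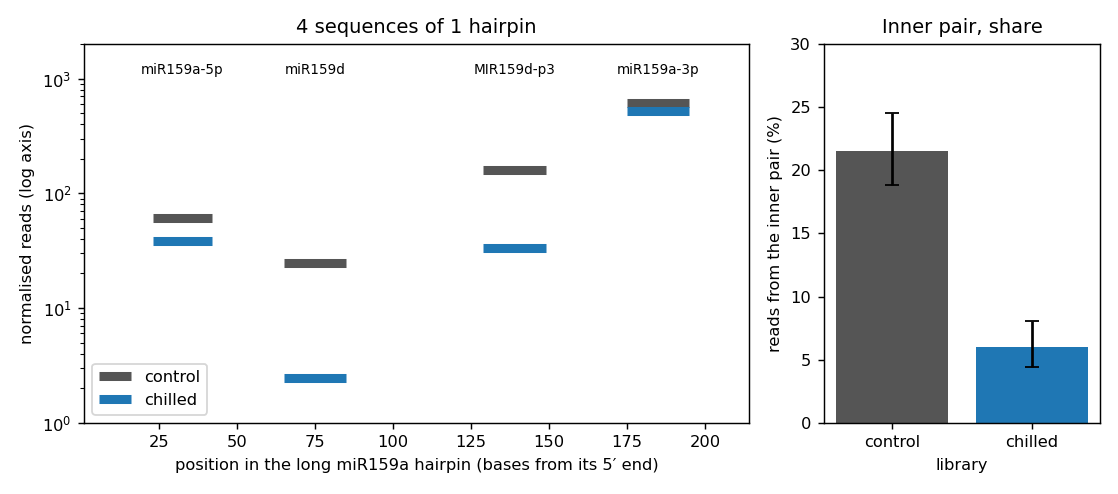
The left panel plots normalised reads (log axis) of the 4 miR159 sequences against their position in the 214-base hairpin, with grey bars for the control and blue bars for the chilled library; the inner sequences differ more between libraries than the outer ones. The right panel plots the inner pair's share of the 4 sequences' reads, 21.5% for control and 5.97% for chilled leaves, with 95% Wilson intervals.

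A share within the hairpin needs no scaling between libraries. The inner pair held 168.5 of 784.0 reads of the 4 sequences in the control library, 21.5% (95% Wilson interval 18.8 to 24.6). It held 39.0 of 653.5 reads in the chilled library, 5.97% (4.39 to 8.05). The intervals did not overlap. Summed, the inner pair had a log2 ratio of -2.33 (-2.90 to -1.85) and the outer pair one of -0.25 (-0.41 to -0.09). The difference between them, computed from raw reads, was -2.11 on the log2 scale, and neither scaling nor the treatment of repeated entries can change it. The shares themselves do depend on that treatment: with the outer sequences summed over both loci, the inner share was 12.0% for control and 3.08% for chilled leaves.

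The 3′ strand was the more abundant in both pairs and both libraries. miR159a-3p took 90.9% of the outer pair in the control (88.2 to 92.8) and 93.1% in the chilled library (90.7 to 94.8). MIR159d-p3 took 86.5% of the inner pair in the control (80.4 to 90.8) and 93.2% in the chilled library (79.7 to 97.3). These intervals overlapped between libraries, which alone does not decide whether strand use differed, and a difference was not tested. The intervals of the inner pair's share did not overlap. Neither kind of interval holds the spread between plants or libraries.

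Other hairpins of the table give the scale for such a spread. Of 77 hairpins with at least 2 sequences over the minimum, counted once per set of sequences, the median range of log2 ratios within a hairpin was 0.72. The range over the 4 sequences of the chromosome 9 hairpin was 2.68, from miR159a-3p to miR159d. Each of the 77 ranges spans 2 sequences, with the outer and the inner miR159 pair entered separately, so a range over 4 is set beside ranges over fewer. A range at least as large was found in 1 of the 77, a hairpin of miR156a with a range of 3.05. Ranges of 2.66, 2.61 and 2.59 in other hairpins came close to it. These ranges also exceeded in size the difference of -2.11 between the inner and outer pair, so such a spread is not particular to this hairpin. The 2.68 ends at miR159d, with 2.67 chilled reads, so its size is poorly known. Within the outer pair the range was 0.43 and within the inner pair 0.68, both below that median, so the spread lay between the pairs and not within them. The 348 hairpin loci of the tables held 2 cases in which a hairpin overlaps another one on the same strand, and the miR159a and miR159d hairpins were 1 of them.

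miR319 was scarce. Its 9 sequences summed to 20 control and 16 chilled reads, against 784.0 and 653.5 for miR159. miR319 thus held 2.49% of the reads of both families for control and 2.39% for chilled leaves. The family sum of miR159 had a log2 ratio of -0.51 (-0.66 to -0.36), and that of miR319 one of -0.54 (-1.61 to 0.45), whose interval includes 0. Both sums lay below 0 under each scaling run. The miR159 sum joins the inner pair with the outer one, and without MIR159d-p3, the more abundant inner strand, it was -0.29.

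MIR319i-p5, the 5′ arm of a hairpin on chromosome 4 (49476852 to 49477045, plus strand), was the miR319 sequence over the minimum, with 10 control and 2 chilled reads. Its log2 ratio was -2.07 (-5.80 to -0.34). The interval runs from below 2-fold to far beyond it, so the size of this difference is poorly known. MIR319i-p5 met the 2-fold rule under every scaling run, though with unscaled reads its 10 control reads stand exactly at the minimum. MIR319c-p5, which has the same seed, went the other way, with 0 control and 4 chilled reads. Together the 2 sequences had 10 control and 6 chilled reads. Whether they share reads was not tested. The listed sequence also differs from its own hairpin at 1 base.

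**Figure D2:**
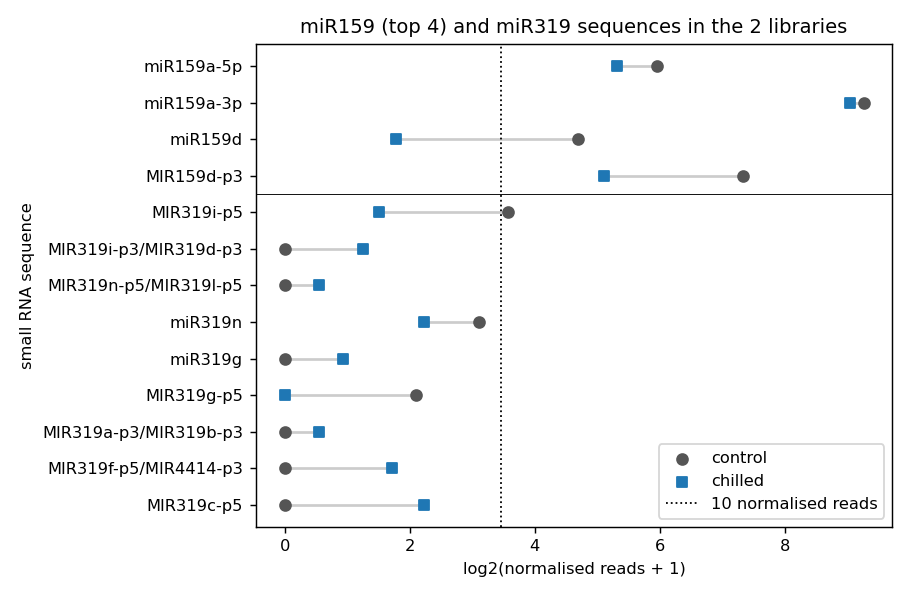
The horizontal axis is log2(normalised reads + 1) of each of the 13 sequences, with grey circles for the control and blue squares for the chilled library, and the dotted line marks 10 normalised reads. The 4 miR159 sequences lie to the right of that line in the control, and of the miR319 sequences MIR319i-p5 alone reaches it.

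The other 8 miR319 sequences had at most 7 reads in a library. miR319n, from the 3′ arm that holds the mature miRNA in other plants, had 7 control and 4 chilled reads, with a log2 ratio of -0.88 (-3.27 to 0.92). miR319g, an 18-base sequence of the same arm, had 0 control reads and 1 chilled read. A count of 0 allows up to 3 reads, so no difference was detectable for it. MIR319c-p5 had 0 and 4 reads, while its near-identical counterpart MIR319g-p5 had 3 and 0. Their opposite directions rest on few reads of sequences that differ little. Whether these 2 sequences share reads was not tested. The remaining 4, MIR319i-p3, MIR319n-p5 (also listed as MIR319l-p5), MIR319a-p3 (also listed as MIR319b-p3) and MIR319f-p5, had 0 control reads and 0.5 to 2.5 chilled reads. MIR319f-p5 is also listed in the table as MIR4414-p3. In all, 6 of the 9 miR319 sequences were listed with reads in the chilled library only and 1 in the control only, each on 4 reads or fewer. Of all 381 sequences, 14.2% were listed with reads in the chilled library only and 6.04% in the control only. Among the 120 sequences with at most 4 reads in each library, the chilled-only share was 43.3%, and the chilled table was the deeper one.

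The 9 hairpins listed for miR319 were 95 to 221 bases long. The last 15 bases of miR319g, which lie in the conserved 3′ arm, occurred exactly in 5 of these hairpins. In 4 of the 5 the table listed a sequence from another place in the hairpin and none that covers those bases. MIR319a-p3, listed for hairpins on chromosomes 5 and 8, is such a case, starting at base 125 of a hairpin of 207 bases whose conserved 3′ arm stretch starts at base 171. In Arabidopsis it is this arm that acts on TCP genes. Of the listed sequences from this arm, miR319g and miR319n had 1 and 11 reads over both libraries. MIR319i-p3, also listed as MIR319d-p3, overlaps the same arm with 13 of 18 aligned bases identical to miR159a-3p, and had 0 control and 1.5 chilled reads. The RefSeq table of Glycine_max_v4.0 names 16 MIR319 genes, and the profile table gives reads for 9 hairpins.

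**Figure D3:**
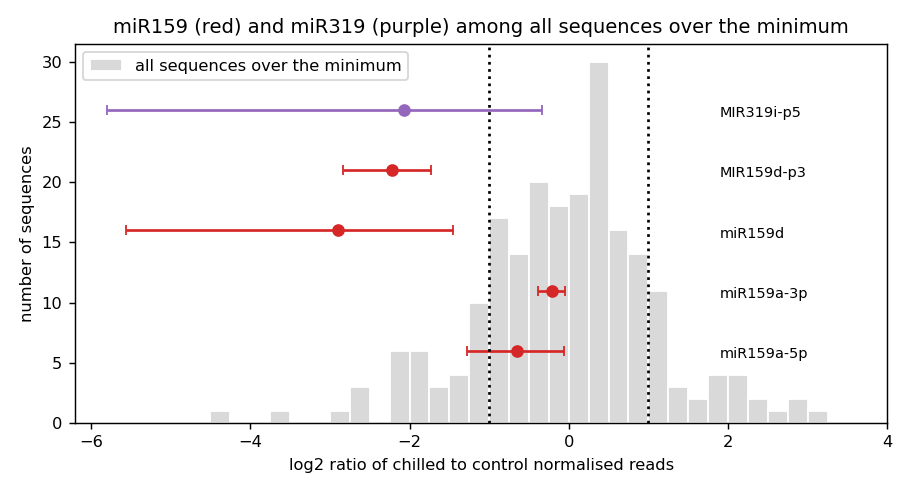
Grey bars count the 213 sequences over the minimum by their log2 ratio (chilled over control); red (miR159) and purple (miR319) points give the 5 members over the minimum with 95% intervals of counting error, at arbitrary heights, and dotted lines mark 2-fold. MIR319i-p5, MIR159d-p3 and miR159d lie left of -1, and miR159a-3p and miR159a-5p lie between the lines.

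Of all 213 sequences over the minimum, 65 met the 2-fold rule (30.5%), 35 of them lower (16.4%) and 30 higher (14.1%). Of the 5 members over the minimum, 3 were 2-fold lower, 0 were higher and 2 were neither. The 3 are MIR159d-p3, miR159d and MIR319i-p5, and the first 2 come from 1 duplex, so they are not separate observations. miR159d and MIR319i-p5 passed the minimum through the control library, where they were high, so this count is a description and not support. Over all 13 members, scarce ones included, the median log2 ratio was -0.21, against 0.18 over all 381 sequences. The median over the 213 sequences was 0.06 and moved to -0.27 with scaling to equal table totals and to 0.32 with unscaled reads.

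The degradome table listed the same sites for both families. Of the 13 sequences, 3 had pairs in the authors' deposited table: miR159a-3p with 10, miR319g with 7 and MIR159d-p3 with 5. They named 15 transcripts of 9 gene loci. All 7 pairs of miR319g were also pairs of miR159a-3p, with the same transcript and the same cut position, which is all of the pairs of miR319g and 70.0% of those of miR159a-3p. Since miR319g and miR159a-3p differ at 1 base of 18, both align to the same sites, and the pairs do not show that both cut them. The degradome cannot tell which of the 2 small RNAs guided a cut at such a site; in reads, miR159a-3p had 559.3 and 572.3 in the small RNA libraries and miR319g had 0 and 1.

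The MYB33 genes were listed for both families. In the authors' deposited table, transcripts of Glyma.13G187500 were cut at positions 1830 (isoform 1) and 1332 (isoform 2), and those of Glyma.15G225300 at 1352, 1298, 1135 and 1010 (isoforms 1 to 4). All 6 transcripts had an abundance of 13.6 TPB, the authors' scaled measure of reads at the cut site, and all stood in category 4, which target callers usually reserve for a site with a single read. The alignment penalty, where 0 is best, was 3.5 for miR159a-3p and 3 for miR319g, so the shorter and rarer sequence scored slightly better. The authors' p was 0.939 for miR159a-3p and 0.98 for miR319g. The 6 transcripts at 13.6 TPB add up to 81.4 TPB, which equals the highest abundance of any category 4 pair in the table, and whether they share the reads of 1 site was not tested.

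BGAL13 (Glyma.12G032600.1), annotated as a beta-galactosidase of glycosyl hydrolase family 35, was the other locus listed for both families. In the authors' deposited table it was cut at position 2108 with 81.4 TPB in category 2, which target callers usually give to a site that is not the highest of its transcript. Here miR159a-3p aligned better, with a penalty of 2.5 against 3.5 for miR319g. The authors' p was 0.183 for miR159a-3p, the lowest of the 22 pairs, and 0.998 for miR319g.

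The other pairs belonged to miR159 alone. The highest abundance of the 22 pairs in the authors' deposited table was 108.5 TPB, at 3 transcripts without annotation, Glyma.12G228100.1 (cut at 1301) and Glyma.13G271900.1 (cut at 1203) and Glyma.13G271900.2 (cut at 803), all paired with miR159a-3p in category 2 at a penalty of 3 and the authors' p of 0.721. MIR159d-p3, the inner strand, was paired with 5 transcripts of 4 loci annotated as the E1 alpha subunit of pyruvate dehydrogenase, the enzyme that turns pyruvate into acetyl-CoA. These were Glyma.03G261000, Glyma.07G049600, Glyma.16G018300 and Glyma.19G260000, all at 97.7 TPB, in category 2, with a penalty of 4 and the authors' p of 0.842. They share an abundance and an annotation. Whether the same reads were counted for all of them was not tested. Summed over the 5 transcripts the abundance was 488.5 TPB, against 325.6 for the 3 transcripts without annotation. The order by single pairs thus differs from the order by sums. The other inner strand, miR159d, had no pair in the table.

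**Figure D4:**
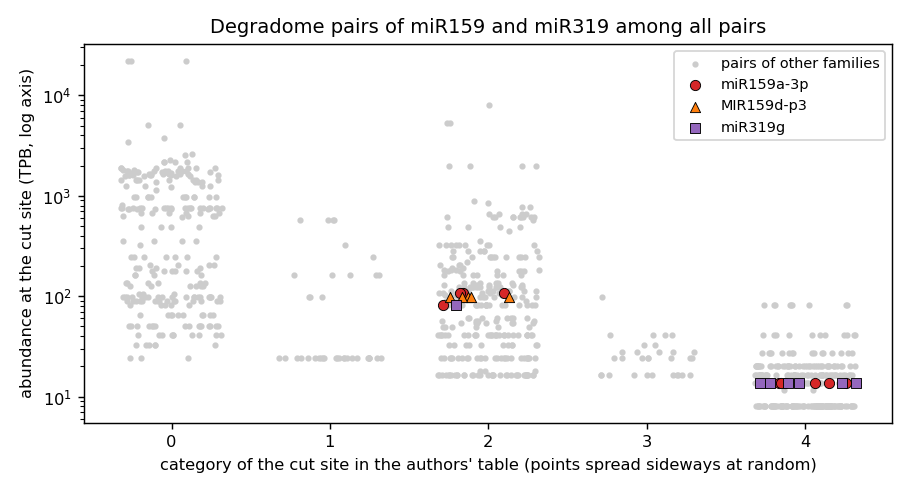
Each point is 1 pair of a small RNA and a transcript in the authors' table, with its category on the horizontal axis (spread sideways at random) and the abundance at its cut site in TPB on a log axis. Coloured points are the 22 pairs of miR159a-3p, MIR159d-p3 and miR319g, which lie in categories 2 and 4 at 13.6 to 108.5 TPB, while pairs of other families (grey) fill all categories.

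None of the 22 pairs reached the stronger categories of the authors' deposited table: 0 were in category 0 or 1, against 33.1% of all 898 pairs, 10 were in category 2 (34.0% of all pairs) and 12 in category 4 (29.5%). The authors' p was under 0.05 for 0 of the 22 and for 15.9% of all pairs. The 22 pairs come down to 4 groups of transcripts, each with 1 abundance, so these counts rest on 4 sites or sets of paralogs and not on 22. Their abundance ranged from 13.6 to 108.5 TPB, with a median of 13.6 against 50.9 over all pairs. Within category 2 the median of the whole table was 81.4 TPB and within category 4 it was 13.6 TPB, close to the values of the members there. The 9 loci were paired with no other small RNA in the table.

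By target class, 12 of the 22 pairs in the authors' deposited table were with genes annotated as MYB, 6 for each of miR159a-3p and miR319g, and 0 were with genes annotated as TCP. Classes were read from the annotation, so the 3 transcripts without annotation, at 2 loci, could not be classed. No pair of any family in the table had a target annotated as TCP, so the class known for miR319 in Arabidopsis was not listed in this library of mixed leaves. Counted once per family and locus, the MYB class held 4 entries, 2 loci for each family.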

How the data were processed

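The members, target classes and comparisons were chosen with earlier results of these data known. The profile tables give, per the file headers, raw reads of each miRNA entry in 1 control and 1 chilled library; many hold fractions, so the deposited values are estimated counts and were rounded for scaling and intervals. How the authors trimmed, aligned and called them, and on which genome build, the sources used here do not give. The same tables give, as deposited by the authors, each hairpin's sequence, coordinates, folding, GC percent and a folding index score. The degradome table gives, per the file headers, an abundance named TPB (a signal scaled by the authors), an alignment score, a category and a p-value for each pair. Of the known miRNA table, 6 lines were empty in the copy used here and were not analysed here.

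One entry was kept per distinct sequence, the one with the most reads. Both libraries were scaled over all 381 sequences with edgeR 4.0.16 (TMM, R 4.3.3), by a log2 difference of 0.25, the chilled library being the deeper. Size factors of DESeq2 1.42.0, the same table total, unscaled reads, a total without miR3522, a pseudocount of 0.5, the sum of all entries and minimums of 0 and 100 were alternatives. With 1 library per condition no test was made. The ratio and call were tested on simulated data. Named were all members and all their target loci.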

Additional observations from a re-analysis of the deposited data

How the results depend on the processing

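The number of members at least 2-fold lower or higher was 3 under TMM and under each other scaling, the pseudocount of 0.5 and the sum of all entries, with MIR159d-p3, miR159d and MIR319i-p5 each time. It was 7 with no minimum, 4 lower and 3 higher, and 1 (MIR159d-p3) with a minimum of 100 normalised reads, by construction of the minimum. Of all 381 sequences, 63 were lower and 63 higher with no minimum. With the minimum of 100, 14 of 99 sequences were lower and 7 higher. The lower calls over all sequences moved with the scaling, from 25 of 218 with unscaled reads to 52 of 214 with the same table total. The miR159 sum of -0.51 moved to -0.73 with the same table total, -0.26 with unscaled reads, -0.31 with the total without miR3522 and -0.29 without opposite arms, and stayed below 0. The miR319 sum stayed within its interval in all of these, between -0.75 and -0.18. MYB pairs of the degradome numbered 12 in all, 0 in category 0 or 1, 0 with the authors' p-value under 0.05 and 4 once per family and locus. The inner share, 21.5% for control and 5.97% for chilled leaves, was 12.0% and 3.08% with all entries summed, an alternative added after seeing the data. Depth limits miR319, most of whose sequences have a few reads. No paired analysis was possible because each condition has 1 library.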

Other observations

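The other overlap of hairpins on a strand in the tables was of the hairpin of miRN1, a sequence the authors list as new, with that of miR169n on the plus strand of chromosome 15 (14166038 to 14166198 and 14166062 to 14166176). Of the 4 degradome groups of miR159 and miR319, the summed abundance was 81.4 TPB for the MYB33 transcripts, 81.4 for BGAL13, 325.6 for the transcripts without annotation and 488.5 for the pyruvate dehydrogenase transcripts.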
